A study of Homo sapiens with 12 samples.

Results

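The protein-coding genes of chromosome 19 named ZNF followed by a number are described here as targets of 5 RNA-binding proteins in HepG2 cells, a human liver cancer line. The rule that picked them used name and place alone in GENCODE release 44, which gave 246 of 20046 protein-coding genes. It was set with earlier results of these data known. A further 262 ZNF genes lie on other chromosomes. PAR-CLIP, in which 4-thiouridine-labelled RNA is crosslinked to protein by ultraviolet light and the protein is immunoprecipitated, used antibodies to METTL1, to WDR4 and to IGF2BP1, IGF2BP2 and IGF2BP3. All 12 libraries came from wildtype cells treated in the same way, and they differed in the antibody. There were 2 replicates for each protein and, for IGF2BP3, another 2 that carry the label bio2. The IGF2BPs bind mRNA, and the study asked whether they recognise m7G inside it. METTL1 and WDR4 together form the enzyme that adds m7G. The deposited files list clusters, which are stretches of the genome where crosslinked reads piled up in a library. They list no read counts, and no input or mock library was used here. RNA levels were not used either, so a gene with more clusters may be a more abundant RNA, and the cell line could not be checked against marker genes.

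C2H2 zinc fingers are short protein loops in which a pair of cysteines and a pair of histidines hold a zinc ion. Zinc finger genes often carry many fingers in a row, written in letters that are partly alike. Most such genes on chromosome 19 arose by repeated duplication of neighbours. Many also have a KRAB domain, which calls in TRIM28 and the histone methyltransferase SETDB1, and many of these silence transposable elements. The transcripts therefore hold a kind of repeat in their coding sequence. Many also hold Alu elements, which descend from the 7SL RNA gene, in their 3' UTRs and introns.

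A total of 1169 of the 102250 clusters had their midpoint in one of the 246 genes on the same strand, from 40 to 224 in a library. At least 1 cluster was found in 129 genes, 52.4% of them, beside 42.8% of all protein-coding genes and 51.5% of ZNF genes on other chromosomes. No cluster was found in the other 117 genes, which sets no upper limit because read depth is unknown. A single cluster was found in 26 genes, and 31 genes held 10 or more. The 10 genes with the most clusters held 461, or 39.4%, of all.

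The bio2 libraries of IGF2BP3 stood apart from the other 10 and are set beside them throughout. Their clusters in these genes were shorter, with median widths of 34 and 35 nt against 40 to 51 nt elsewhere. None had a centre found at over 100 places in the genome, against 16.5% to 44.9% in the other 10 libraries. Both IGF2BP3 pairs used the same cell line and treatment in the labels, and what else bio2 marks was not given.

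The sequences that show the coding sites are those of the 8 sites, in 7 genes, that were found in at least 3 libraries and reached the second histidine codon of a finger. Each is a 30-nt window of hg38 read in the sense of the gene, with both histidine codons in capitals. The first is on chromosome 19 at chr19:24127178-24127207 (+), in finger 5 of the 13 in ZNF254. The second, at chr19:57291509-57291538 (+), is finger 5 of 11 in ZNF460. The others are chr19:21293549-21293578 (-) in ZNF708, chr19:21118067-21118096 (+) in ZNF714, chr19:23361268-23361297 (-) and chr19:23361772-23361801 (-) in ZNF91, chr19:36237288-36237317 (+) in ZNF146 and chr19:36749116-36749145 (-) in ZNF850.
ZNF254: ttactacaCATaaaataattCATgttggag
ZNF460: tcattcaaCACttcattatcCATactgggg
ZNF708: ttactaatCATaaaaaaattCATactggag
ZNF714: ttactaaaCATaacataattCATactggag
ZNF91, finger 11: ttactacaCATaaaataattCATgctggaa
ZNF91, finger 6: ttactaaaCATaaaataataCATgctggag
ZNF146: acattagaCACcagaaaattCATactcact
ZNF850: ttactcaaCATcaacaaatcCATactggtg
The ZNF254 window and the window of finger 11 of ZNF91 shared 28 of 30 letters, while those of ZNF254 and ZNF146 shared 16. In 7 of the 8 windows no G lies between the 2 histidine codons or before them, and G follows the second within the window. The exception is ZNF146.

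Sites outside coding sequence are shown by the central 30 nt of sites whose centre is found once in the genome, with CAT followed by A, C or T, a motif that IGF2BPs are known to favour, in capitals. The motif was searched on the sense strand alone. The ZNF121 windows lie near the end of its 3' UTR, at chr19:9561127-9561156 (-) and chr19:9560933-9560962 (-). The others are the 5' UTR site of ZNF146 at chr19:36236272-36236301 (+) and the 3' UTR sites of ZNF599 at chr19:34765105-34765134 (-), ZNF529 at chr19:36545599-36545628 (-), ZNF570 at chr19:37486553-37486582 (+) and ZNF444 at chr19:56160363-56160392 (+).
ZNF121, nearer the stop codon: gtatccacaCATTaataactctatttctat
ZNF121, farther: tCATAccactctttttaaaaatcaactaac
ZNF146: aCATTtcctctcaaaccttatcccttactc
ZNF599: cctacctcttctatattttCATCccctctc
ZNF529: ctCATTtaactccaaaatCATCtctctctt
ZNF570: ctctaCATAtattaactCATCtactcctca
ZNF444: tccaactccttttcccccaaatttcacttt
The windows of ZNF529 and ZNF570 hold the motif at 2 places, and that of ZNF444 holds none. They are a choice among 19 such sites found in 6 or more libraries and do not give the share with the motif. Among those not shown, the motif was also absent at ZNF587, ZNF426, ZNF480, ZNF69, ZNF714 and another 3' UTR site of ZNF444.

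Zinc finger transcripts were bound mainly in their 3' UTRs, and more so than other genes in 10 of 12 libraries. Of the 1169 clusters, 727 lay in 3' UTRs, 275 in introns, 134 in coding sequence, 15 in 5' UTRs and 18 in other exons. The 3' UTR share was 69.6% and 66.7% in the IGF2BP1 libraries, 78.1% and 68.2% for IGF2BP2, 60.8% and 60.7% for IGF2BP3, 54.0% and 56.6% for METTL1, and 53.5% and 55.1% for WDR4. The bio2 libraries gave 38% and 45% and were the only ones below all other protein-coding genes of the same library. Over the 12 libraries the share exceeded that of other genes by 13.03 percentage points ± 12.1 (SD, n = 12; exact sign-flip permutation test over libraries, two-sided p = 0.00586, 0.0127 after Benjamini-Hochberg adjustment over 13 tests). It exceeded that of ZNF genes on other chromosomes by 14.5 points ± 13.3 (n = 12; same exact test, p = 0.00684, adjusted 0.0127). With clusters of single-copy centre alone the differences were 7.01 and 8.18 points, and neither passed (exact permutation p = 0.0527 and 0.0771).

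**Figure D1:**
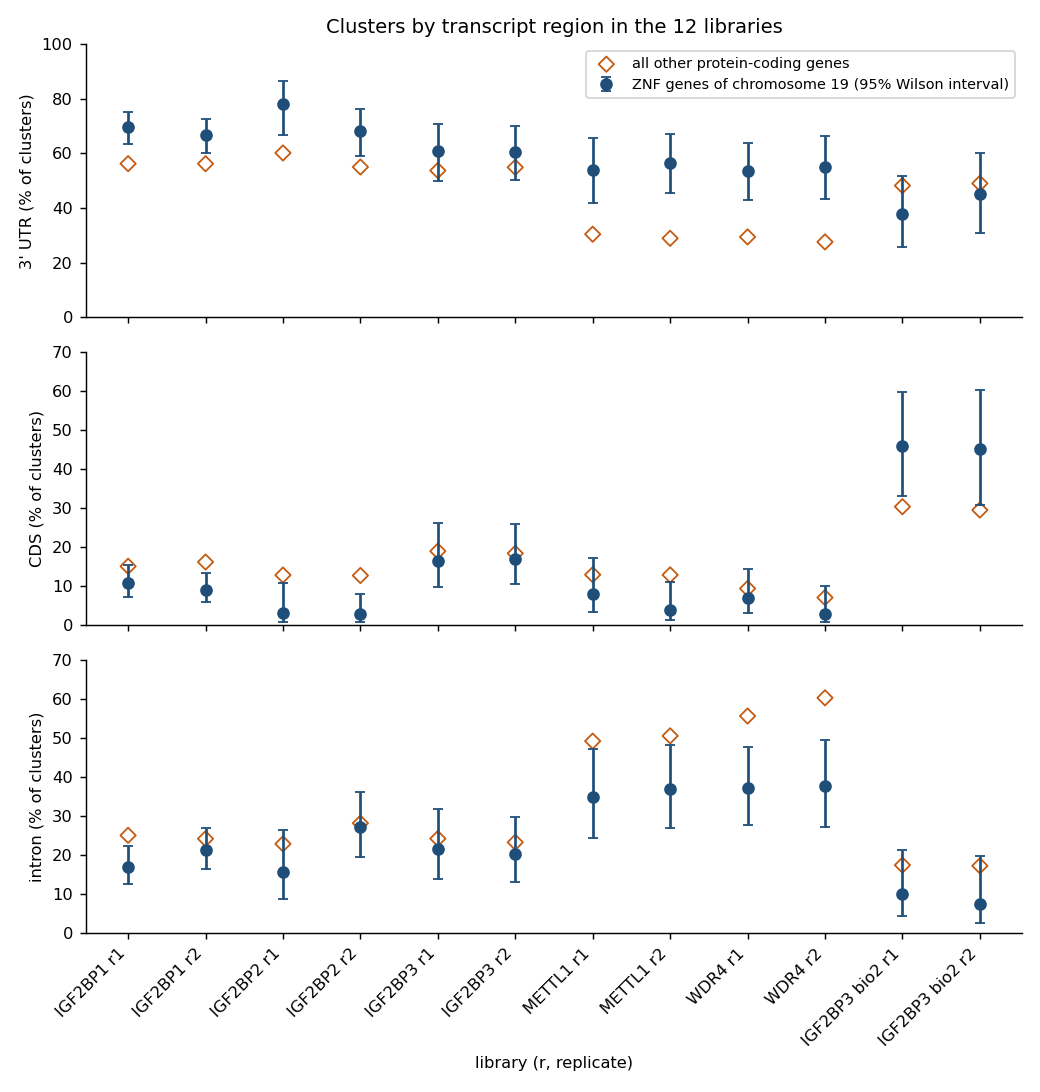
Share of clusters in 3' UTRs (top), coding sequence (middle) and introns (bottom), in percent of a gene set's clusters, for each of the 12 libraries. Filled circles with 95% Wilson intervals are the ZNF genes of chromosome 19, and open diamonds are all other protein-coding genes. The METTL1 and WDR4 circles in the top panel lie between 53.5% and 56.6% against diamonds between 27.6% and 30.4%, and the bio2 libraries have the highest coding shares, 46% and 45%.

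The gap to other genes was widest for METTL1 and WDR4. In those 4 libraries the 3' UTR share of the zinc finger genes was 25.7 points ± 2.18 (SD, n = 4) above that of other genes, against 6.71 ± 9.49 (n = 8) in the IGF2BP libraries, a difference of -18.96 points (exact permutation test over 495 splits, two-sided p = 0.00404, adjusted 0.0162 over 8 tests). For METTL1 and WDR4, other genes had 27.6% to 30.4% of their clusters in 3' UTRs. The 3' UTR share of the zinc finger genes themselves did not separate the families, at 60.9% ± 13.3 (n = 8) against 54.8% ± 1.37 (n = 4; exact permutation p = 0.392). Left without bio2, the IGF2BP mean was 12.6 points higher (exact permutation p = 0.00952).

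Introns held a smaller share of the clusters for the IGF2BPs than for METTL1 and WDR4. The intron share was 16.96% and 21.2% for IGF2BP1, 15.6% and 27.1% for IGF2BP2, 21.5% and 20.2% for IGF2BP3, 10.0% and 7.50% for bio2, 34.9% and 36.8% for METTL1, and 37.2% and 37.7% for WDR4. The 2 families did not overlap, with means of 17.5% ± 6.43 (n = 8) and 36.7% ± 1.21 (n = 4; exact permutation p = 0.00202, adjusted 0.00525), the smallest p that 495 splits allow. Other genes showed the same order, at 17.2% to 28.1% against 49.2% to 60.2%. In all 12 libraries the zinc finger genes had a lower intron share than other genes, with a mean gap of -9.25 points ± 6.76 (SD, n = 12; exact sign-flip permutation p = 0.000488, the smallest possible, adjusted 0.00159). Among single-copy centres alone the mean gap was 1.13 points (exact permutation p = 0.695).

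Coding sequence held 10.7% and 9.01% of the zinc finger clusters for IGF2BP1, 3.12% and 2.80% for IGF2BP2, 16.5% and 16.9% for IGF2BP3, 7.94% and 3.95% for METTL1, and 6.98% and 2.90% for WDR4. The bio2 libraries had 23 of 50 and 18 of 40 clusters there. They lay 15.5 and 15.6 points above other genes, while the gap in the other 10 libraries was -9.93 to -1.55 points. Over all 12 libraries the mean gap was -2.06 points ± 8.72 (SD, n = 12; exact sign-flip permutation p = 0.424). Over the 10 libraries that do not carry the bio2 label it was -5.59 points (exact permutation p = 0.00195). The IGF2BP and METTL1/WDR4 libraries had coding shares of 18.7% ± 17.3 (n = 8) and 5.44% ± 2.40 (n = 4; exact permutation p = 0.137).

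The share of all clusters that fell in the zinc finger genes was 1.22% to 1.54% in the 6 IGF2BP libraries without the bio2 label, 0.774% and 0.666% in the bio2 libraries and 0.750% to 0.952% for METTL1 and WDR4. The IGF2BP mean of 1.22% ± 0.323 (n = 8) and the METTL1/WDR4 mean of 0.865% ± 0.0844 (n = 4) differed by 0.354 points (exact permutation p = 0.0586). Leaving bio2 out gave 0.520 points (exact permutation p = 0.00476).

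Coding clusters sat on one side of the finger. The 246 canonical coding sequences held 3070 fingers by the spacing of their cysteines and histidines, with a median of 12 in a gene and 36 in ZNF208, and the finger units of 84 nt made up 57.6% of all coding nucleotides. Fingers held the midpoints of 71 of the 134 coding clusters, or 53.0%, in 24 genes. A site is counted once for each library that held it, so these clusters are not independent sites. The ZNF254 site found in 10 libraries gave 10 of the 71. Within the unit, 66 of the 71 midpoints, or 93.0%, fell in the 30 nt that end with the second histidine codon, which are 35.7% of the unit and encode most of the DNA-reading helix. None fell between the cysteine codons. The first histidine codon was covered by 66 of the 71 clusters and the second by 50. The IGF2BP libraries held 65 of the 71 clusters, the bio2 libraries 26 and the METTL1 and WDR4 libraries 6. Without the bio2 libraries 42 of 45 midpoints, or 93.3%, lay in the same 30 nt.

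**Figure D2:**
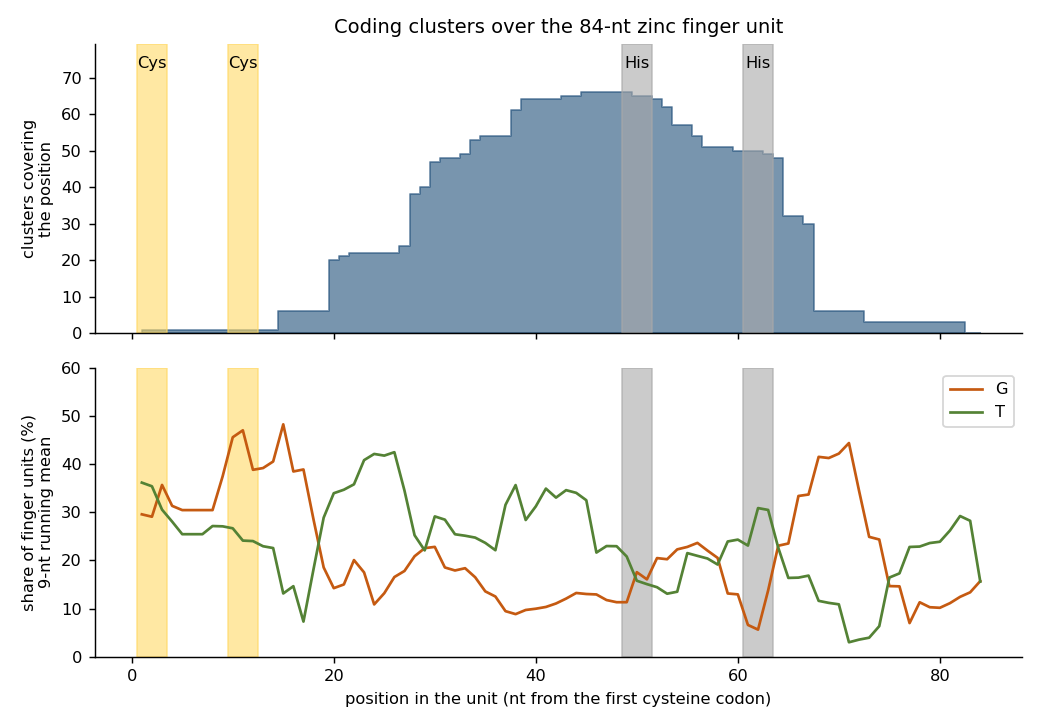
Coding clusters over the 84-nt zinc finger unit, aligned by the first cysteine codon. Top, number of the 71 clusters with the midpoint in a finger that cover each position; bottom, share of finger units with G or T at each position, as a running mean over 9 nt. A site is counted once for each library that held it. Yellow bands are the cysteine codons and grey bands the histidine codons. Coverage is highest, 66 clusters, up to the first histidine codon and falls within a few nucleotides after the second.

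The 30 nt with most of the midpoints are poor in G, at 13.3% on average over 2980 full finger units, against 31.2% between and over the cysteine codons, 26.4% in the stretch that follows and 24.3% in the linker. RNase T1, used in this protocol, cuts after G, and the crosslink needs a labelled U, written T here. T made up 25.5% of the same 30 nt. It made up 34.9% between and over the cysteine codons, 24.5% in the stretch that follows and 15.4% in the linker. The part of RNase T1 or of the labelled U in the position of the clusters was not tested. At least 1 of the 2 histidine codons read CAT followed by A, C or T in 71.1% of all finger units. Of the 71 clusters, 64, or 90.1%, covered such a codon. The 2 shares have unlike units, because a site enters the 71 once for each library and a finger unit is counted once.

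The other coding clusters lay before the first finger (24), between fingers or in units with other spacing (17) and after the last recognised finger (12). The remaining 10 were a single site of ZNF91 that is coding in another transcript than the canonical one, at chr19:23338971-23339043 (-). It was found in all 10 libraries without the bio2 label and in neither bio2 library, and it resembles 7SL RNA in antisense.

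Coding clusters often had a twin sequence elsewhere. The central 20 nt of 62 coding clusters, 46.3%, occurred at 2 to 10 places in the genome, against 15.0% for the coding clusters of other genes. Of these 62, 30 lay in fingers of the recognised spacing, and 44 had a copy in another zinc finger gene of chromosome 19. In 14 coding clusters the same centre was a cluster at another of these genes in the same library, so that reads of one transcript may be listed at both. ZNF28 and ZNF468, for example, each had a coding site outside such fingers, in 5 libraries, whose centre occurred at 2 places. Of the 71 finger clusters 38 had a centre found once, and 34 of these 38, or 89.5%, had their midpoint in the 30 nt described above. Here too a site is counted once for each library that held it.

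ZNF460 carried the most reproducible single-copy coding sites. Its site at chr19:57291506-57291535 (+), shown above, and another at chr19:57292089-57292123 (+) were each found in 6 libraries, which were both IGF2BP1 libraries and all 4 of IGF2BP3. Neither was found for IGF2BP2, METTL1 or WDR4. ZNF460 had 12 coding clusters and 7 in the 3' UTR.

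ZNF254 had the most widely shared finger site. The cluster at chr19:24127165-24127201 (+) was found in 10 libraries, all 8 of the IGF2BPs and 1 each of METTL1 and WDR4. Its central 20 nt occurred at 2 places in the genome. Of the 53 merged coding sites, 3 were found in both families, and these were in ZNF254, ZNF91 and ZNF587.

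Repeated sequence set the zinc finger clusters apart, in coding sequence and 3' UTRs more than in introns. Over the 12 libraries, single-copy centres made up 43.3% of their coding clusters against 82.5% in other genes. In 3' UTRs these were 35.6% against 68.9%, and in introns 46.9% against 51.3%. The library values that follow are for all regions. A centre found once in the genome was held by 40.6% and 41.0% of the zinc finger clusters for IGF2BP1, 31.2% and 29.9% for IGF2BP2, 53.2% and 48.3% for IGF2BP3, 30.2% and 27.6% for METTL1, and 37.2% and 27.5% for WDR4. The bio2 libraries had 66% and 65%. In all 12 libraries the share was lower than in other genes, with a mean gap of -23.8 points ± 4.82 (SD, n = 12; exact sign-flip permutation p = 0.000488, adjusted 0.00159), and lower than in ZNF genes elsewhere, with a mean gap of -19.3 points ± 6.67 (n = 12; exact permutation p = 0.000488, adjusted 0.00159). These gaps depended on the length of the centre: with the central 15 nt they were -2.11 points (exact permutation p = 0.000488) and -1.06 points (exact permutation p = 0.0938). The IGF2BP and METTL1/WDR4 means were 46.9% ± 13.8 (n = 8) and 30.6% ± 4.55 (n = 4), a difference that did not pass after adjustment (exact permutation p = 0.0444, adjusted 0.0722). A 20-nt centre can repeat where the whole read does not, so that a repeated centre does not say that the read was misplaced.

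**Figure D3:**
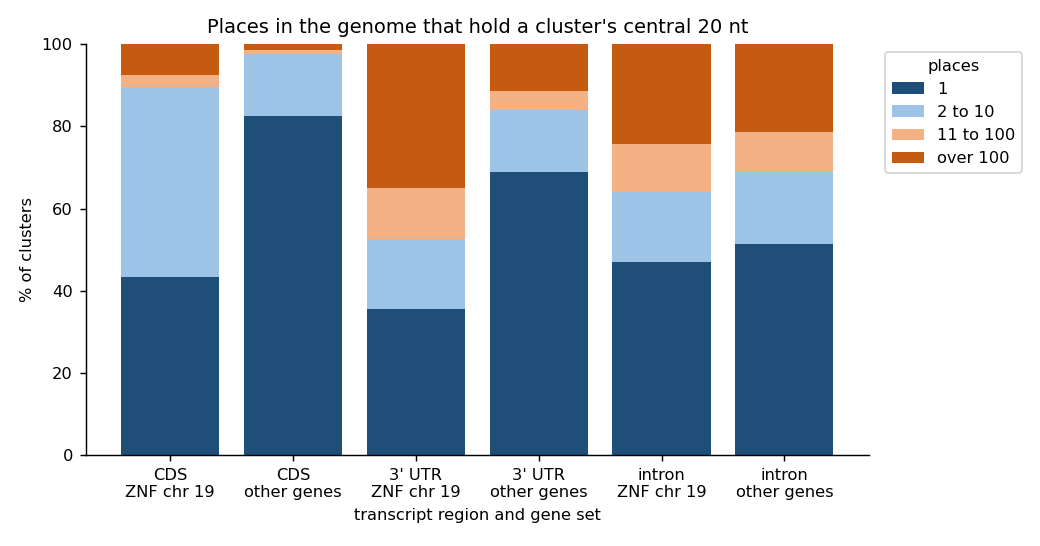
Percent of clusters by the number of places in hg38 that hold their central 20 nt on either strand, over all 12 libraries. Each pair of bars sets the ZNF genes of chromosome 19 beside all other protein-coding genes for coding sequence, 3' UTRs and introns. In zinc finger 3' UTRs 35.6% of centres occur once and 34.9% at over 100 places, against 68.9% and 11.4% in other genes.

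Sequence like 7SL RNA, and so like Alu, lay within 100 nt of 48.1% of the zinc finger clusters and 20.1% of the clusters of other genes. The difference was in 3' UTRs, at 58.0% against 17.7%, more than in introns, at 44.7% against 34.2%. The match was antisense for 363 clusters and sense for 199. By library, the share was 51.3% and 46.8% for IGF2BP1, 60.9% and 66.4% for IGF2BP2, 25.3% and 30.3% for IGF2BP3, 58.7% and 76.3% for METTL1, and 52.3% and 62.3% for WDR4. It was 2.00% and 5.00% in the bio2 libraries. In other genes too the values of IGF2BP3 were below those of the other proteins and those of bio2 lower still, with 16.5% to 29.9% for IGF2BP1 and IGF2BP2, 8.45% and 9.85% for IGF2BP3, 27.8% to 34.1% for METTL1 and WDR4, and 1.93% and 1.88% for bio2.

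The motif CAT followed by A, C or T was found in or within 10 nt of 88.0% and 92.5% of the zinc finger clusters in the bio2 libraries, 75.9% and 69.7% in the other IGF2BP3 libraries, 45.8% to 59.4% for IGF2BP1 and IGF2BP2, and 31.7% to 42.0% for METTL1 and WDR4. The clusters of other genes gave 77.8% and 78.7%, 74.9% and 73.9%, 51.9% to 63.8% and 40.3% to 46.96% in the same order. ZNF genes on other chromosomes gave 88.9% and 88.0% in the bio2 libraries, so the high bio2 shares were not particular to chromosome 19. They gave 49.4% to 71.3% in the other IGF2BP libraries and 33.8% to 49.4% for METTL1 and WDR4. Among single-copy centres of the chromosome 19 genes, the clusters themselves held the motif in 91.4% of 58 coding clusters. In 3' UTRs it was held by 76.1% of 259 and in introns by 58.1% of 129. These shares pool all 12 libraries, whose mix differed by region. With centres of any copy number, bio2 held 41 of the 134 coding clusters and 5 and 3 of the 275 in introns. Regions were not compared for the motif within a library.

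Clusters that overlapped were merged into 497 sites, of which 278, or 55.9%, were found in 1 library and 52 in 6 or more. No site was found in more than 10 libraries, and 6 were found in 10. Of the 258 sites near 7SL-like sequence, 141, or 54.7%, were found for METTL1 or WDR4, 58 for both families and 2 in a bio2 library. Of the 239 sites without it, 85, or 35.6%, were found for METTL1 or WDR4, 30 for both families and 56 in a bio2 library. Both families met at 88 sites in all, 72 of them in 3' UTRs.

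A site in at least 2 libraries of the same protein was found in 67 of the 246 genes for IGF2BP1 (27.2%, against 18.8% of all genes), in 25 for IGF2BP2 (10.2% against 7.08%), in 49 for IGF2BP3 (19.9% against 16.4%), in 13 for METTL1 (5.28% against 3.77%) and in 15 for WDR4 (6.10% against 5.2%). In exons alone these were 58 genes for IGF2BP1 (23.6% against 15.8%), 23 for IGF2BP2 (9.35% against 5.84%), 45 for IGF2BP3 (18.3% against 13.9%), 10 for METTL1 (4.07% against 2.9%) and 11 for WDR4 (4.47% against 3.3%). IGF2BP3 had 4 libraries and the other proteins 2 each. In any region, ZNF genes on other chromosomes gave 22.1%, 8.78%, 18.3%, 1.15% and 2.67% in the same order of proteins. In exons alone they gave 20.2%, 5.73%, 16.0%, 1.15% and 0.382%. The canonical 3' UTRs of the 246 genes had a median of 1688 nt, against 1010 nt in other genes, and 2049 nt where the gene held a cluster against 1254 nt where it did not.

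**Figure D4:**
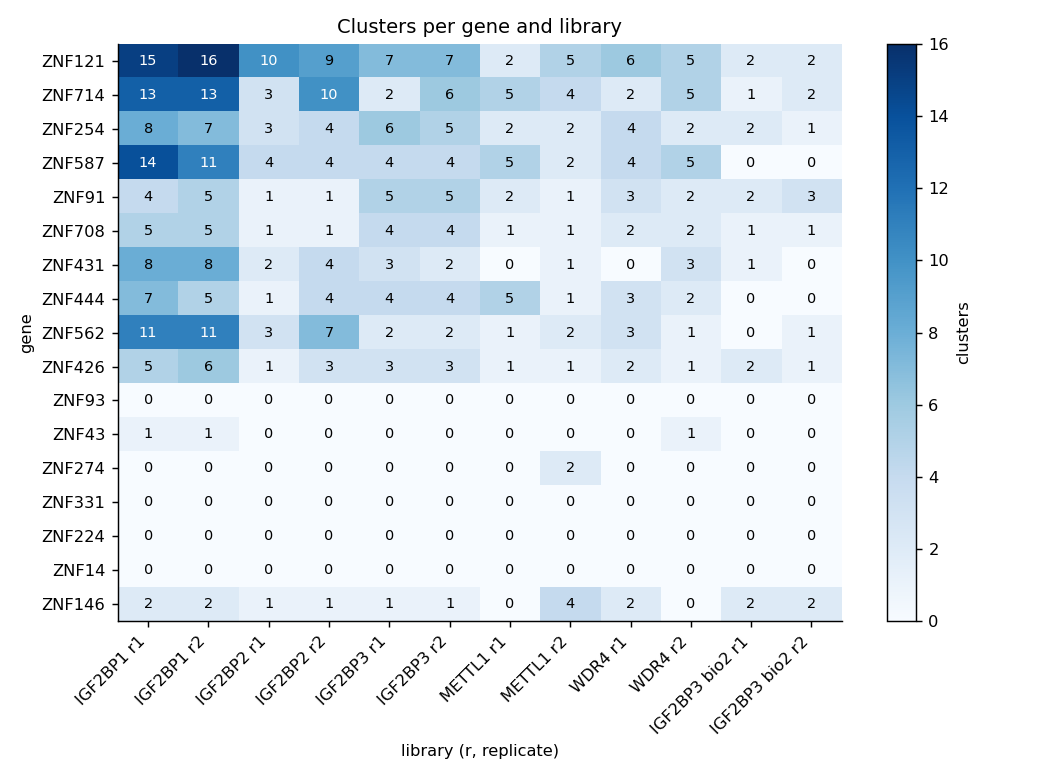
Number of clusters in each of 17 zinc finger genes (vertical) and each of the 12 libraries (horizontal). Shades run from 0 to 16 clusters. ZNF121 leads in total with 86, the bio2 columns are pale, and ZNF93, ZNF331, ZNF224 and ZNF14 are at 0 throughout.

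ZNF121 held the most clusters. It had 15 and 16 in the IGF2BP1 libraries, 10 and 9 for IGF2BP2, 7 and 7 for IGF2BP3, 2 and 2 for bio2, 2 and 5 for METTL1, and 6 and 5 for WDR4. Of the 86, 84 lay in its 3' UTR of 5611 nt, at 18 sites. Of its 12 sites found in 2 or more libraries, 7 lay near 7SL-like sequence and 4 had a single-copy centre.

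Along that 3' UTR the bio2 libraries kept to the far end. Each of them had 2 clusters in it, at the single-copy sites centred 4805 and 4994 nt after the stop codon, shown above. The site at 4994 nt was found in 10 libraries, the 8 IGF2BP libraries and both of WDR4, and the site at 4805 nt in 9, the 8 IGF2BP libraries and 1 of WDR4. METTL1 was at neither. A 7SL-like site 1660 nt after the stop codon was found in all 10 libraries without the bio2 label.

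**Figure D5:**
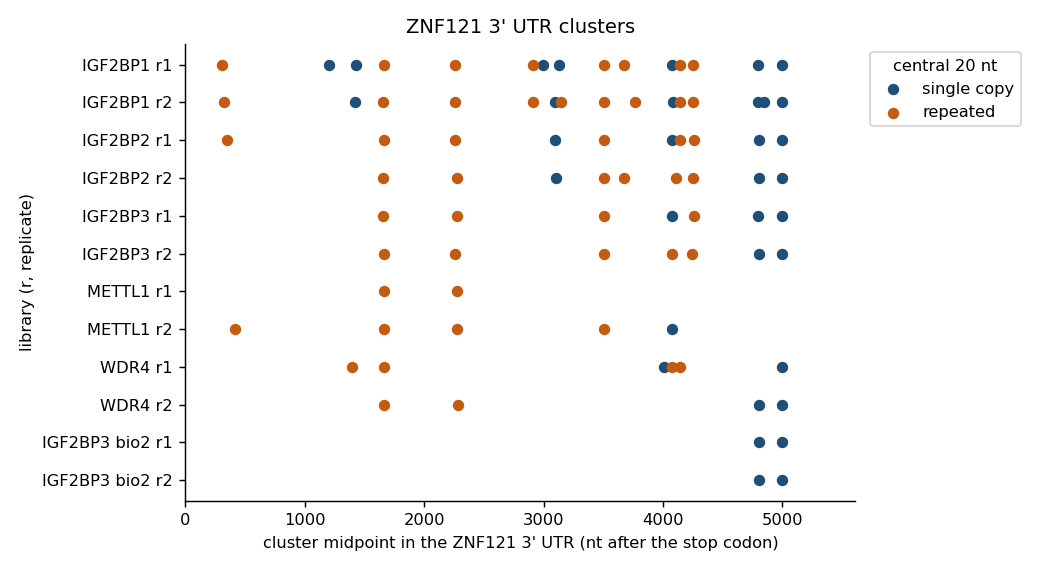
Midpoints of the 84 clusters in the ZNF121 3' UTR, in nt after the stop codon, by library. Blue points have a centre found once in the genome and orange points a repeated one. The bio2 libraries have the 2 blue points near 4805 and 4994 nt, and the METTL1 libraries have none there.

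ZNF714, ZNF708, ZNF431, ZNF91 and ZNF254 lie in the block of zinc finger genes between 20 and 30 Mb. There 18 of 31 genes, or 58.1%, held 261 clusters, where 42.8% of all protein-coding genes held at least 1. ZNF714 had 13 and 13 clusters for IGF2BP1, 3 and 10 for IGF2BP2, 2 and 6 for IGF2BP3, 1 and 2 for bio2, 5 and 4 for METTL1, and 2 and 5 for WDR4. Of its 66, 52 were in the 3' UTR, 46 near 7SL-like sequence and 12 in coding sequence. ZNF431 had 32, of which none had a single-copy centre and 27 were near 7SL-like sequence. ZNF708 had 28 and was found in all 12 libraries, with a 3' UTR site in 10 of them.

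ZNF91, which represses SVA and L1 transposable elements, had 4 and 5 clusters for IGF2BP1, 1 and 1 for IGF2BP2, 5 and 5 for IGF2BP3, 2 and 3 for bio2, 2 and 1 for METTL1, and 3 and 2 for WDR4. It was the member with the most coding clusters, 22 of 34, and 10 of these were the site in the alternative coding exon. Its canonical coding sequence has 31 fingers, and of its 3 other coding sites found in 3 or 4 libraries the 2 shown above lay on fingers of the recognised spacing. ZNF93, which represses L1 elements, had no cluster, and ZNF43 had 3, each in a different library.

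ZNF254 was the member with the most intronic clusters. Of its 46 clusters 35 were intronic and 11 coding, and none lay in its 3' UTR of 1988 nt. By library it had 8 and 7 for IGF2BP1, 3 and 4 for IGF2BP2, 6 and 5 for IGF2BP3, 2 and 1 for bio2, 2 and 2 for METTL1, and 4 and 2 for WDR4. Of the intronic clusters 31 also lay in a long noncoding RNA gene on the same strand, ENSG00000268362, and 6 in an exon of it, so that the 2 transcripts cannot be told apart there.

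A pair of these intronic sites faced each other as an inverted repeat. They lay at chr19:24040216-24040273 (+), in 10 libraries, and chr19:24040387-24040449 (+), in 8. Their longest shared run, 25 nt that read the same on opposite strands, is shown because the 2 stretches are exact reverse complements with 150 nt between them. The arms lie at chr19:24040234-24040258 and chr19:24040409-24040433.
ZNF254, first arm: tattggatctgcagaagtgtaaaac
ZNF254, second arm: gttttacacttctgcagatccaata
The 10 libraries at the first arm were all those without the bio2 label, and the second was absent from both METTL1 libraries as well as both bio2 libraries. Whether the RNA folds there was not measured.

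ZNF587, ZNF562 and ZNF426 also had most of their clusters in the 3' UTR and near 7SL-like sequence. ZNF587 had 57 clusters, 14 and 11 of them for IGF2BP1, and none in the bio2 libraries, and 39 were near 7SL-like sequence. ZNF562 had 44, of which 43 were in its 3' UTR of 11142 nt and 41 near 7SL-like sequence. ZNF426 had 29 in all 12 libraries, 28 of them in the 3' UTR, 17 of the 29 near 7SL-like sequence. Its site with a single-copy centre in 8 libraries, all of them IGF2BP, was also near such sequence.

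ZNF444, a factor with a SCAN domain, differed from these in having no cluster near 7SL-like sequence. It had 36 clusters, 30 with a single-copy centre, 20 in its short 3' UTR of 692 nt and 16 in introns. By library it had 7 and 5 for IGF2BP1, 1 and 4 for IGF2BP2, 4 and 4 for IGF2BP3, 0 and 0 for bio2, 5 and 1 for METTL1, and 3 and 2 for WDR4. Its main 3' UTR site was found in 9 libraries of all 5 proteins.

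ZNF146, whose protein is little more than an array of fingers, was bound in its 5' UTR. It had 2 and 2 clusters for IGF2BP1, 1 and 1 for IGF2BP2, 1 and 1 for IGF2BP3, 2 and 2 for bio2, 0 and 4 for METTL1, and 2 and 0 for WDR4. Of its 18 clusters, 9 were a single 5' UTR site, found in the 8 IGF2BP libraries and 1 of WDR4. The 246 genes had 7 sites in 5' UTRs, and this was the one found in more than 1 library.

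Other single-copy 3' UTR sites differed in the proteins that shared them. ZNF599 had all 9 of its clusters at 1 site, in 6 of the 8 IGF2BP libraries, 1 of METTL1 and both of WDR4. The sites of ZNF480, ZNF529 and ZNF570 were found in 8, 7 and 7 libraries, and METTL1 was at none of them. Outside coding sequence 47 sites were found in 6 or more libraries, of which 19 had a single-copy centre and 21 lay near 7SL-like sequence. These 2 kinds overlap in part, and a bio2 library was among those found at 8 of the 19 and at 1 of the 21.

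ZNF274, which binds the ends of other zinc finger genes and brings in SETDB1, had 2 intronic clusters, both in METTL1 replicate 2. ZNF331, an imprinted gene, ZNF224 and ZNF14 had none.

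Among 14 genes whose proteins work with KRAB zinc fingers, 11 held a cluster, against 42.8% of all genes, and 7 held a site in at least 2 libraries of a protein, against 23.3% of all genes. CBX5, which encodes the heterochromatin protein HP1 alpha, had 59 clusters, all in its 3' UTR, in all 12 libraries, with sites in at least 2 libraries for all 5 proteins. ATF7IP, a partner of SETDB1, had 15, of which 14 were in the 3' UTR. TRIM28 itself had 7 clusters in 4 libraries, 5 of them in coding sequence, and SETDB1 had 1. CHD3, MPHOSPH8 and DAXX had none.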

How the data were processed

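The authors filtered and clipped PAR-CLIP reads and collapsed identical ones with the FASTX toolkit, kept reads over 15 nt, mapped them with bowtie (up to 3 mismatches, up to 10 places) and called clusters with PARalyzer in each library. Versions and PARalyzer settings were not given in the sources used here; the labels give hg38. The deposited values are of the unit other: each line is a genomic interval, with an empty score column and no count.

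Clusters were assigned by their midpoint and strand to GENCODE 44, with coding sequence before 3' UTR, 5' UTR, other exon and intron. Copy number is the number of places in hg38, on both strands, that hold the central 20 nt. 7SL-like sequence was found with blastn 2.17.0 (word size 7, e-value 1e-05) against the RN7SL1 transcript within 100 nt of the midpoint. This comparison and the finger alignment were added after the data had been seen. Fingers were read from translated canonical coding sequences as Cys, 2 residues, Cys, 12 residues, His, 3 residues, His. Overlapping clusters on a strand were merged into sites.

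Shares were compared with two-sided exact permutation tests, over splits of the 8 IGF2BP and 4 METTL1 and WDR4 libraries or over sign flips in 12 libraries, with a threshold of 0.05. They were tested on simulated data. Named genes were the 10 with the most sites found in at least 2 libraries of a protein, the top 3 of each protein, those with a site in at least 10 libraries, 8 well-known zinc finger genes and 14 KRAB partners; other genes were named for their sites after their values were seen. The members and lists were chosen with earlier results of these data known. The labels do not say which replicates were separate cultures, and p-values measure the spread between these libraries. Wilson intervals (95%) cover counting error alone. Of the clusters in these genes, 162, or 13.9%, lay in more than 1 gene. Alternatives left out libraries, merged proteins or changed annotation, width, repeats, contigs and overlaps. Replicate numbers were not taken as pairs.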

Additional observations from a re-analysis of the deposited data

Results flagged for a closer look

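Across 26 groups of libraries that were screened for a library far from the rest, of which chance marks about 1 in 20, the single-copy share of WDR4 replicate 1 stood out among the 4 METTL1 and WDR4 libraries. It lay -18.5 percentage points from that of other protein-coding genes, the highest of the 4, against -24.1 on average.

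The IGF2BP libraries and the METTL1 and WDR4 libraries differed in how far the zinc finger genes lay from other genes, by exact permutation tests over 495 splits. For the 3' UTR share the IGF2BP gap minus the METTL1 and WDR4 gap was -18.96 points against all other protein-coding genes (exact permutation p = 0.00404, adjusted 0.0162) and -15.6 points against ZNF genes on other chromosomes (exact permutation p = 0.0424, adjusted 0.113). For the intron share against other protein-coding genes it was 11.9 points (exact permutation p = 0.00202, adjusted 0.0162).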

How the results depend on the processing

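Over 13 results and 311 alternative settings, 270 kept direction and side of the threshold, 26 lost the threshold, 9 passed it and 6 changed sign. With each library left out in turn, the share of clusters in these genes differed between families by 0.307 to 0.433 points, passing without either bio2 library (exact permutation p = 0.0333 and 0.0212), the single-copy share by 13.5 to 18.7 points, and the coding share lay -2.34 to 0.716 points from ZNF genes elsewhere. That coding gap was above 0 without IGF2BP2 replicate 1 (0.716), IGF2BP2 replicate 2 (0.199) or METTL1 replicate 2 (0.657), and without ZNF121 (0.336). The single-copy difference between families passed in 3 of these 12 settings and not without ZNF121 (15.7), with a central 25 nt (14.9), with identical centres of a library counted once (17.4) or without bio2 (10.1). With a central 15 nt it was -1.12 and the gap to ZNF genes elsewhere -1.06. Without bio2, the share in these genes (0.520), the 3' UTR share (12.6) and the coding gaps to other genes (-5.59) and other ZNF genes (-4.47) passed. Among single-copy centres, the share in these genes (0.318) and the coding gaps (-8.30 and -7.73) passed, the 3' UTR gaps were 7.01 and 8.18, and the intron gaps 1.13 and -1.54. The cause was not tested. With proteins as units, where the smallest exact p is 0.1 between families and 0.0625 within libraries, no result could pass: intron -18.2, single-copy 12.5, 3' UTR gaps 15.7 and 17.0, intron gaps -9.96 and -13.5, single-copy gaps -24.7 and -20.5. The replicate block left the single-copy difference at 16.3 (exact permutation p = 0.0622) and changed no other call between families. Replicate numbers did not pair libraries, with correlations of -0.106 to 0.0840 over 8576 genes, and no block was run within libraries, since it leaves 2 values. Counting identical centres once and a copy number without alternate contigs were chosen after seeing the data. Clusters have no depth, so a missing cluster sets no limit.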

Other observations

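Along chromosome 19, zinc finger genes with a cluster were found in every 10-Mb stretch, at unequal rates. Between 0 and 10 Mb, where ZNF121, ZNF426 and ZNF562 lie, 15 of 20 genes held 243 clusters. Between 40 and 50 Mb, which includes ZNF224, 9 of 30 genes held 27 clusters. Between 50 and 60 Mb, 46 of 99 genes held 382. RNA levels were not used here, and their part in these differences was not tested.

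Zinc finger genes overlap one another and other genes on their strand. ZNF701 shared 22 of its 31 clusters with ZNF808, ZNF8 shared all 25 with ENSG00000283515, and ZNF587B shared 21 with ENSG00000268750. Of the 275 intronic clusters, 47 lay in a gene that is not protein-coding on the same strand and 8 in an exon of one.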
